A study of Mus musculus with 5 samples.

Results

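Chemokines and chemokine receptors were described in single cells of the mouse penis and of the mouse fore- and hindlimb. The members were every gene whose symbol is Ccl, Cxcl, Ccr or Cxcr followed by digits and an optional letter, plus Cx3cl1, Cx3cr1 and Ackr1 to Ackr4, which gave 64 gene identifiers of the 32285 in the count matrices. They were 43 ligands (18 identifiers of ligands usually called homeostatic, 2 of ligands tethered to a membrane and 23 of ligands usually called inflammatory), 17 signalling receptors and 4 atypical receptors. The 64 identifiers carried 58 symbols, 9 of them (extra copies of homeostatic ligands) held no unique molecular identifier (UMI) in any library, and 12 held fewer than 50 UMIs summed over the 5 libraries. Where copies share a symbol (Ccl19, Ccl21a and Ccl27a among them) the identifier with UMIs is the one given here, and reads of near-identical copies could have been split between them, so these levels are uncertain.

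Chemokines are small secreted proteins that guide cells along a gradient. Most signal through receptors that couple to inhibitory G proteins, while the atypical receptors bind chemokines without that signal and clear, carry or store them. Homeostatic chemokines are made steadily and place cells in tissues, as Cxcl12 does through its receptor Cxcr4, and inflammatory chemokines are made by activated macrophages, endothelium and other cells and draw monocytes, neutrophils and lymphocytes.

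The study set penis against limb at stages when bone forms in each. Penises with the prepuce taken off, mainly the glans, came from males at postnatal day 6 (3 males of 2 litters, 3 libraries), and limbs came from male embryos at embryonic day 15 (6 embryos in the methods, 1 forelimb and 1 hindlimb library). The labels give the strain of all 5 libraries as C57BL/6N and the methods as C57BL/6J. No animal carried a transgene or received an agent. Tissue was dissociated with enzymes at body temperature, and libraries were made from the 3′ ends of transcripts. Tissue and age cannot be told apart in this design, and the labels do not tie a penis library to a mouse or litter or say whether the limb libraries share embryos. Forelimb and hindlimb have 1 library each and were treated as 2 libraries of 1 limb group, so p-values measure only the spread between these 5 libraries.

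After the study's filters 6788, 7085 and 5708 penis cells remained in libraries 1, 2 and 3, with 22057 forelimb and 20514 hindlimb cells. Cells held a median of 8791 to 9909 UMIs in the penis and 5358 to 6057 in the limb. Cells were gated into types by detection of fixed marker genes, none of them a member, and 78.8% to 89.0% of cells passed one gate. Pairs of libraries shared 20 to 203 cell barcodes. Levels are given as CPM, the UMIs of a gene in every 1000000 UMIs of the same cells. Members together made 695 to 728 CPM of the penis libraries and 611 to 670.5 CPM of the limb libraries. UMI sums per library were tested, for the 9 types that reached 20 cells in all libraries, with edgeR's quasi-likelihood test, and a member was called at a Benjamini-Hochberg adjusted p under 0.01, taken over all genes tested, with a log2 difference of at least 1. Errors of log2 differences are standard errors (SE), and errors of levels are SD over 3 penis or 2 limb libraries.

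Promoters are shown first for the neutrophil attractants Cxcl1 and Cxcl2, the interferon-induced Cxcl10 and the lymphocyte attractant Ccl19, which differed between types or tissues. Each is the RefSeq window of 250 bases before and 50 after the gene's start (GRCm38.p6), read 5′ to 3′ on the gene's strand, with capitals marking motif matches. Cxcl1 lies at chr5:90890995-90891294 on the plus strand, with kappa B matches on both strands at -71 to -62 and -70 to -61 from the start. Cxcl2 lies at chr5:90903649-90903948 on the plus strand, with kappa B matches at -97 to -88 and -96 to -87. Cxcl10 lies at chr5:92348840-92349139 on the minus strand, with kappa B matches starting at -159, -104 and -103, an ISRE core match at -213 to -204 and an AP-1 match (TGANTCA) at -74 to -68. Ccl19 lies at chr4:42756316-42756615 on the minus strand, with an ISRE core match at -208 to -199.
Cxcl1: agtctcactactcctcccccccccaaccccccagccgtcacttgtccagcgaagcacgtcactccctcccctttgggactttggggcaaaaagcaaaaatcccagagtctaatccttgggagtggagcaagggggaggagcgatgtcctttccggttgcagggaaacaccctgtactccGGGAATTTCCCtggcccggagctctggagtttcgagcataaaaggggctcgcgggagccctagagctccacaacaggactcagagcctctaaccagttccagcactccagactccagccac
Cxcl2: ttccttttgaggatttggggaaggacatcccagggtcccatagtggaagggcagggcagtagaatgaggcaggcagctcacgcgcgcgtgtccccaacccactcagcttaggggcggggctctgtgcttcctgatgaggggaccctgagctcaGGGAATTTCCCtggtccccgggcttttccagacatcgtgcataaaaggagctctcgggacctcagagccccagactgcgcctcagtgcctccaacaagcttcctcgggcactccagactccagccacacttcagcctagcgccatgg
Cxcl10: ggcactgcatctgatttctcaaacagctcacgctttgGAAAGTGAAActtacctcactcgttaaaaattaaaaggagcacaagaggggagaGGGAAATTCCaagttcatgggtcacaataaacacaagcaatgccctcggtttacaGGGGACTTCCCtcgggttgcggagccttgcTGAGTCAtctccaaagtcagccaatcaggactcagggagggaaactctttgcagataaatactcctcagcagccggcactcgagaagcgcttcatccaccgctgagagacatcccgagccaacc
Ccl19: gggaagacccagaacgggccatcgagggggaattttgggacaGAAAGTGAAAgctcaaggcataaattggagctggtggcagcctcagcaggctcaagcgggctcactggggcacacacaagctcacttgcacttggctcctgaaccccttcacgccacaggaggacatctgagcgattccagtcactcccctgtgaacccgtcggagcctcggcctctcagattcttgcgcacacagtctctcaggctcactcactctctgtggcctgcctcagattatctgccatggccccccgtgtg
Over both strands, the kappa B motif was in 8.46% of the 32851 RefSeq promoter windows, AP-1 in 7.81%, the ISRE core in 3.44% and TATAAA in 13.6%. Of the 58 member symbols 43 had a window. Of these, 12 held a kappa B match, 8 an AP-1 match, 3 an ISRE core match (Ccl19, Cxcl10 and Cxcl14) and 13 TATAAA. The 43 symbols had 50 windows, and a symbol was counted for a match in any of its windows, while the percentages count single windows. Among the 15 inflammatory ligands with a window, 7 held a kappa B match (Ccl1, Ccl20, Ccl9, Cxcl1, Cxcl10, Cxcl2 and Cxcl3). A match is a string of letters and not a measured binding site.

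Most calls of a member as higher were made in macrophages and other leukocytes. The first question was which members stood higher in a type than in all other gated cells of the same library, with the library as a block. Macrophages had the most members called higher (21 of 40 tested, with 9 lower, against 13.2% and 25.3% of all genes), and the median member difference was 3.59 on the log2 scale against -0.34 over all genes. In other leukocytes, cells with general leukocyte markers but no finer gate, 18 of 42 were called higher and 8 lower (12.6% and 20.4% of all genes), with a median of 1.82 against -0.46. In the remaining types most called members were lower. The other gated cells include the leukocytes, so members high there tend to be called lower in each remaining type. Ccr2, for example, was at 0.0873 CPM in chondrocytes against 8.20 in the rest, while mesenchyme held 0.0929 CPM. These counts thus do not place a type below other stroma. The counts of members called higher and lower were 3 and 22 of 48 in mesenchyme (7.02% and 8.09% of all genes), 3 and 11 of 37 in mural cells (2.67% and 3.64%), and 3 and 14 of 36 in blood endothelium (8.91% and 16.5%). They were 2 and 18 of 37 in keratinocytes (7.43% and 17.1%) and 1 and 11 of 34 in Schwann cells (5.52% and 10.9%). With edgeR's test, 0 of 39 members were called higher in chondrocytes (2 at an unadjusted p under 0.05) and 25 lower (1.82% and 6.23% of all genes), and 0 of 39 were called higher in tendon cells (1 at an unadjusted p under 0.05) and 14 lower (0.844% and 3.52%).

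**Figure D1:**
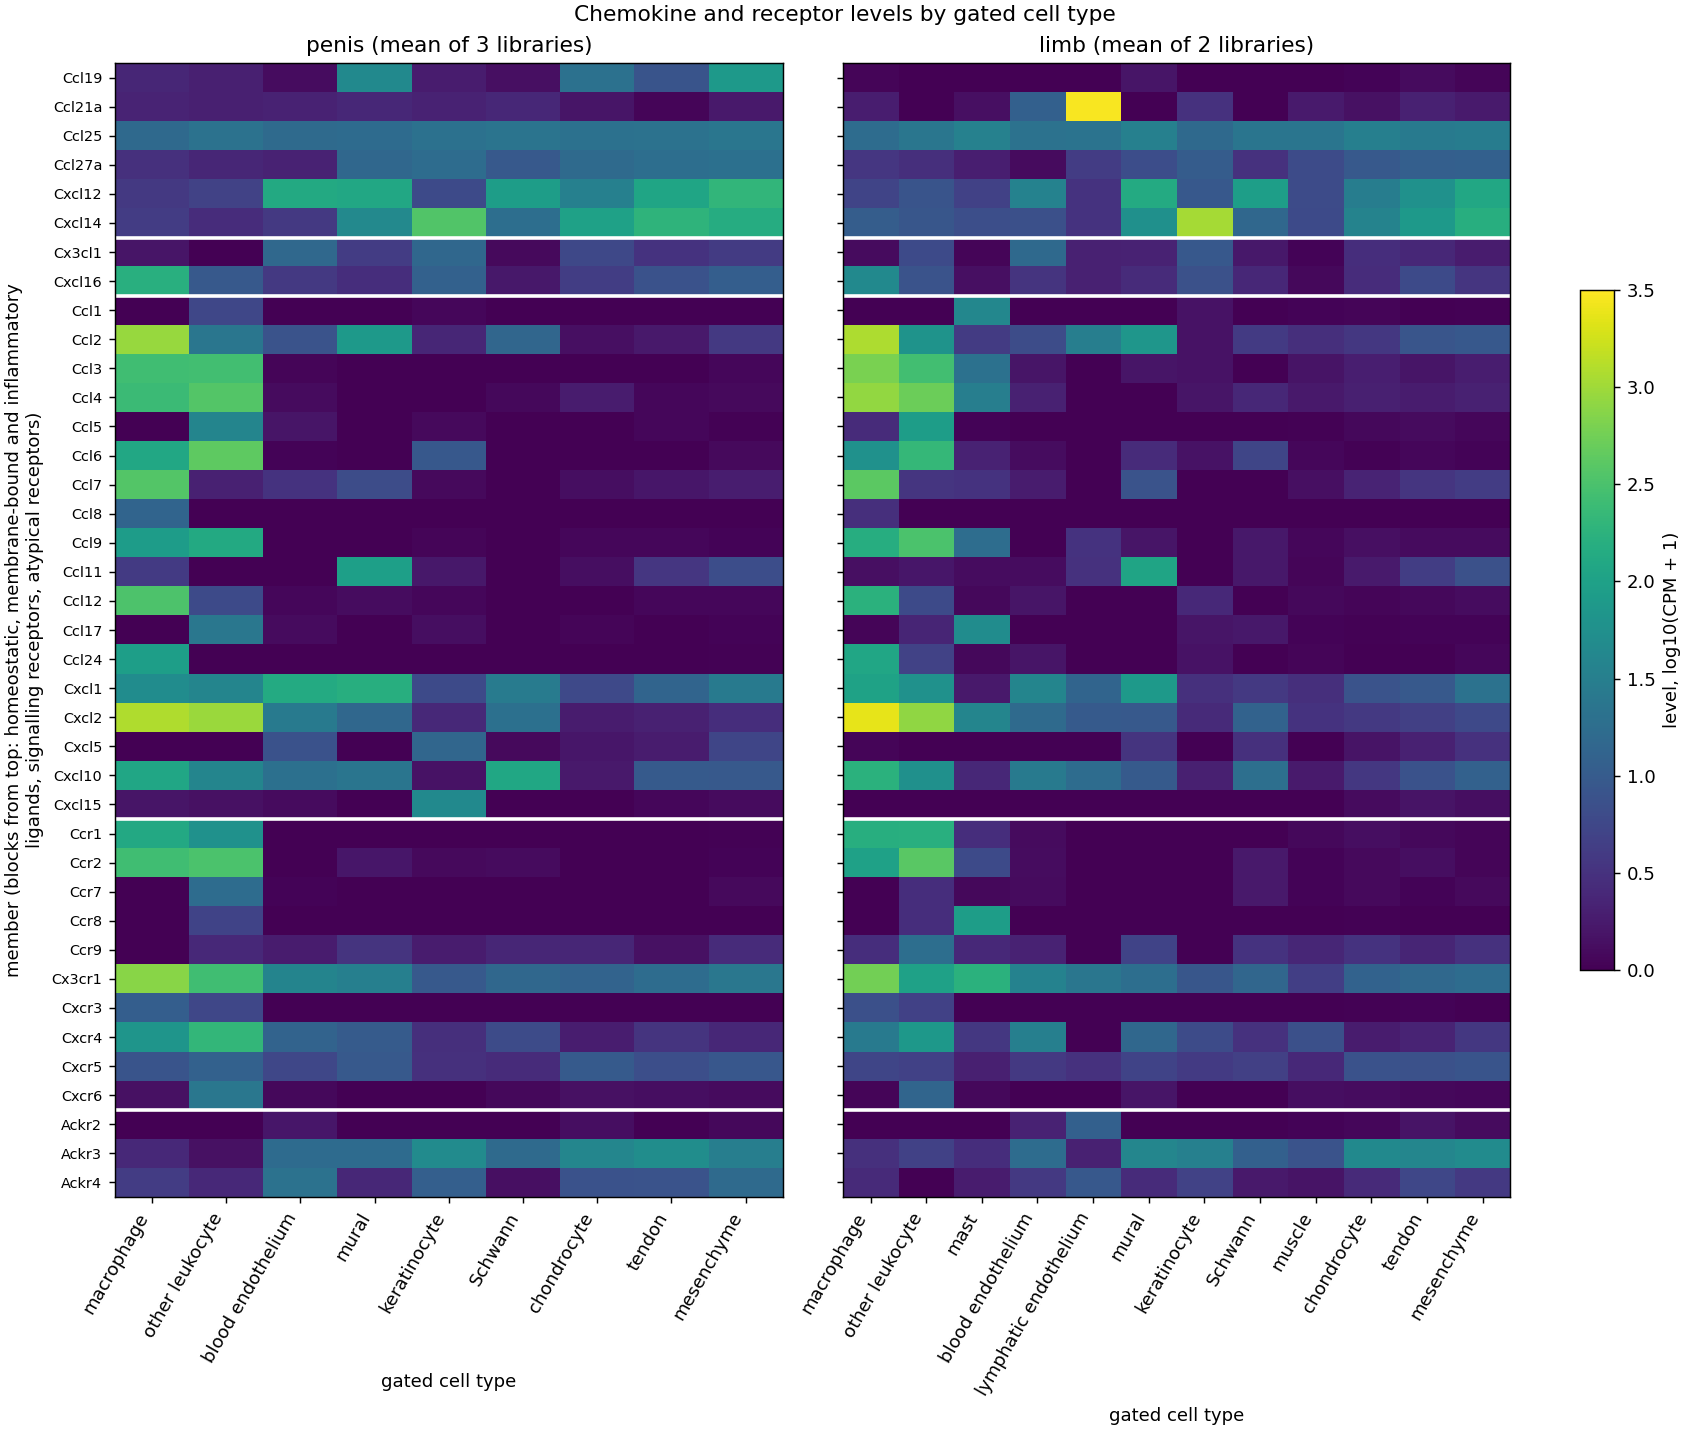
Mean level of members that reach 10 CPM in a type (rows, ordered by role) in each gated cell type (columns) of penis (left, mean of 3 libraries) and limb (right, mean of 2 libraries), coloured by log10(CPM + 1). Most inflammatory ligands and signalling receptors are high in macrophages and other leukocytes, while Cxcl12, Cxcl14, Ccl25 and Ackr3 reach across stromal types and Ccl19 is coloured in penis stroma and near 0 in limb stroma.

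Among homeostatic ligands, Cxcl12, the ligand of Cxcr4 and Ackr3, marked mesenchyme. Its level there was 199, 200 and 195 CPM in penis libraries 1, 2 and 3, 135 in the forelimb and 110 in the hindlimb, higher than in the other gated cells in 5 of 5 libraries by 1.81 ± 0.18 (adjusted p = 0.000657, edgeR quasi-likelihood). In the penis the next type was blood endothelium at 131 ± 19.6 CPM, whose libraries did not overlap mesenchyme. In the limb mural cells (139 CPM) and mesenchyme (123 CPM) overlapped. In macrophages Cxcl12 was at 3.37 CPM on average over the 5 libraries, lower than in the rest by 4.71 ± 0.28 on the log2 scale (adjusted p = 3.46e-07, edgeR).

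Cxcl14, a chemokine of epithelia, was highest in keratinocytes of both tissues. Its levels there were 325, 307 and 417 CPM in the penis and 1229 and 877 CPM in fore- and hindlimb. The difference from the other gated cells was 2.37 ± 0.34 (adjusted p = 0.000769, edgeR) in 5 of 5 libraries. The next types were tendon in the penis (186 CPM) and mesenchyme in the limb (155 CPM). Ccl25, a thymus and gut chemokine, was flat instead. It was detected in all 9 penis and 12 limb types, with 20.9 to 23.9 CPM in penis mesenchyme and 28.6 to 29.3 in limb mesenchyme, and its chondrocyte level differed from the rest by 0.06 ± 0.09 (adjusted p = 0.706, edgeR).

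Ccl21a, which guides Ccr7-bearing cells into lymph vessels and nodes, was a gene of the lymphatic endothelium. The gate held 16, 26 and 28 penis cells and 39 forelimb and 34 hindlimb cells, too few for a test. Its level there was 4575, 3642 and 6861 CPM in the penis and 3650 and 2277 CPM in fore- and hindlimb, and the tissues overlapped. A Ccl21a UMI was found in 56.3%, 46.2% and 78.6% of the penis cells and in 92.3% and 88.2% of the limb cells. Thinned to 2000 UMIs a cell, these shares were 56.2%, 47.7% and 78.5%, and 90.5% and 82.9%. In blood endothelium the share was 0.725% to 2.21% (thinned 0.131% to 1.78%), and in macrophages, not known as a source, it was 0% to 3.75% (thinned 0% to 0.679%). Median UMIs in the lymphatic gate were 9473 to 13895 in the penis and 6699 to 10591 in the limb. In this gate 28 of 70 penis and 12 of 73 limb cells had just the 3 markers needed, and the part of gate makeup in the shares was not tested.

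Of the membrane-tethered ligands, Cx3cl1, which captures Cx3cr1-bearing cells, was called higher in blood endothelium (2.82 ± 0.38, adjusted p = 0.000652) and in keratinocytes (2.36 ± 0.31, adjusted p = 0.000501, both edgeR), in 5 of 5 libraries each. Its endothelial level was 16.1, 11.4 and 15.6 CPM in the penis and 13.8 and 15.5 in fore- and hindlimb, so the tissues overlapped. Cxcl16, the ligand of Cxcr6 and the other tethered member, was called higher in macrophages (4.32 ± 0.19, adjusted p = 4.4e-08, edgeR).

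Mural cells, the pericytes and smooth muscle of vessels, carried Ccl11, an attractant of eosinophils. Its level was 88.6, 82.8 and 108 CPM in the penis and 111 and 109 in fore- and hindlimb, and the next type was mesenchyme with 5.63 CPM (penis) and 6.45 CPM (limb). The difference was 4.50 ± 0.17 (adjusted p = 3.97e-08, edgeR). Cxcl1 was also higher in mural cells (2.14 ± 0.16, adjusted p = 8.34e-06) and in blood endothelium (2.00 ± 0.28, adjusted p = 0.000698, both edgeR) in 5 of 5 libraries. Ccl2 was the third member called higher in mural cells, at 72.1 CPM against 27.0 in the other gated cells (1.59 ± 0.29, adjusted p = 0.00379, edgeR, in 5 of 5 libraries), a call that ended without the block and without any 1 of the penis libraries.

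Macrophages carried the monocyte attractants. Ccl2, the main ligand of Ccr2, stood at 919, 854 and 935 CPM in the penis and at 1384 and 968 in fore- and hindlimb macrophages against 6.20 CPM in the other gated cells, a difference of 7.48 ± 0.11 (adjusted p = 1.66e-10, edgeR). Ccl7 (380 against 1.79 CPM), Ccl12 (269 against 0.252) and Ccl24 (100.3 against 0.0836) followed the same pattern, with differences of 7.92 ± 0.23, 9.98 ± 0.32 and 10.22 ± 0.32. All of these 4 were higher in 5 of 5 libraries. Ccl7 and Ccl12 also bind Ccr2, and Ccl24 is an eosinophil attractant.

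The neutrophil attractant Cxcl2 (6.78 ± 0.36), the inflammatory ligands Ccl3 (6.58 ± 0.39) and Ccl4 (5.75 ± 0.53) and Cxcl10 (3.74 ± 0.32), a ligand of Cxcr3, were called higher in macrophages too. The receptor Ccr1, which binds Ccl3 and Ccl5, differed by 7.04 ± 0.16. Cx3cr1, the fractalkine receptor that marks many tissue macrophages, differed by 4.93 ± 0.10, with 757 CPM in penis macrophages and 569 CPM in limb ones. Adjusted p-values of these 6 were 7.06e-10 to 7.63e-06 (edgeR).

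Many members called higher in other leukocytes were called in macrophages too, Ccl6, Ccl9, Ccr2 and Cxcr4 among them. Of those given above for macrophages, Cxcl2 (4.76), Ccl3 (4.97), Ccl4 (4.92), Cxcl10 (1.81), Ccr1 (5.08) and Cx3cr1 (2.57) were called higher in other leukocytes as well. Ccl5, a product of lymphocytes, was at 57.4 CPM against 0.462 in the rest (7.17 ± 0.43, adjusted p = 2.22e-07, edgeR). Ccl6 (6.84 ± 0.17) and Ccl9 (6.05 ± 0.15), a pair of related Ccr1 ligands of myeloid cells, differed as well, and by 4.60 ± 0.24 and 5.43 ± 0.18 in macrophages. The monocyte receptor Ccr2 differed by 6.50 ± 0.20 and Cxcr4 by 5.39 ± 0.34. Cxcr6, the Cxcl16 receptor, differed by 4.92 ± 0.50 (adjusted p = 1.2e-05, edgeR). The differences of Ccr2 and Cxcr4 in macrophages were 5.45 ± 0.18 and 3.43 ± 0.21. Cxcr4 was also called higher in blood endothelium, at 19.6 CPM against 4.91 in the rest (1.98 ± 0.36, adjusted p = 0.00299, edgeR). Its endothelial level was 15.1% to 20.6% of the macrophage level in the penis, and 104% and 133% in fore- and hindlimb.

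Atypical receptors had no single home. Ackr3, which scavenges Cxcl12, was high in tendon (50.4 CPM) and keratinocytes (47.3 CPM) of the penis and in mesenchyme (48.5 CPM) and chondrocytes (44.4 CPM) of the limb, and each pair overlapped. Ackr1, which carries chemokines across venules, was low and was called higher in Schwann cells (1.91 ± 0.40, adjusted p = 0.00697, in 4 of 5 libraries) and mesenchyme (1.17 ± 0.23, adjusted p = 0.00759, both edgeR). Both Ackr1 calls ended under 7 and 8 of the alternative settings. Ackr4, which scavenges Ccl19 and Ccl21, had its highest mean in blood endothelium (19.6 CPM) among the 9 penis types ranked, but its libraries overlapped mesenchyme. Over all libraries Ackr4 was not called higher in blood endothelium (0.61 ± 0.20, adjusted p = 0.0326, edgeR). Among the 12 limb types ranked it was highest in lymphatic endothelium (8.07 CPM). Lymphatic endothelium was not ranked in the penis, where library 1 had just 16 such cells. The rankings thus cover different types, and whether the tissues differ in the leading type was not tested. Rankings given above for Cxcl12, Cxcl14, Ccl11 and Ackr3 used the same sets of types.

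The second question was how penis and limb differed within a type. Of the members, 45 were tested in at least 1 of 9 types and 30 were called in at least 1, with 18 higher in the penis and 16 lower somewhere and 4 of them both (Ccl2, Cxcl1, Cxcl14 and Cxcr4). In mesenchyme 6 of 39 were higher in the penis and 8 lower (12.5% and 12.6% of all genes tested). The counts were 4 and 1 of 14 in blood endothelium (7.47% and 4.95%), 2 and 1 of 12 in mural cells (7.13% and 5.4%), 2 and 1 of 12 in keratinocytes (5.72% and 6.22%), and 2 and 1 of 14 in tendon cells (8.22% and 7.16%). In Schwann cells 3 of 9 were higher and 0 lower (8.69% and 7.4%), and at an unadjusted p under 0.05 the same number passed, all higher. In chondrocytes 4 of 11 were higher and 0 lower (10.2% and 7.38%), with 6 at an unadjusted p under 0.05, 5 of them higher. In macrophages 5 of 19 were higher and 3 lower (6.65% and 2.94%), and in other leukocytes 3 of 18 were higher and 5 lower (6.06% and 3.91%). The median member difference ran from -0.24 in other leukocytes to 0.80 in keratinocytes.

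**Figure D2:**
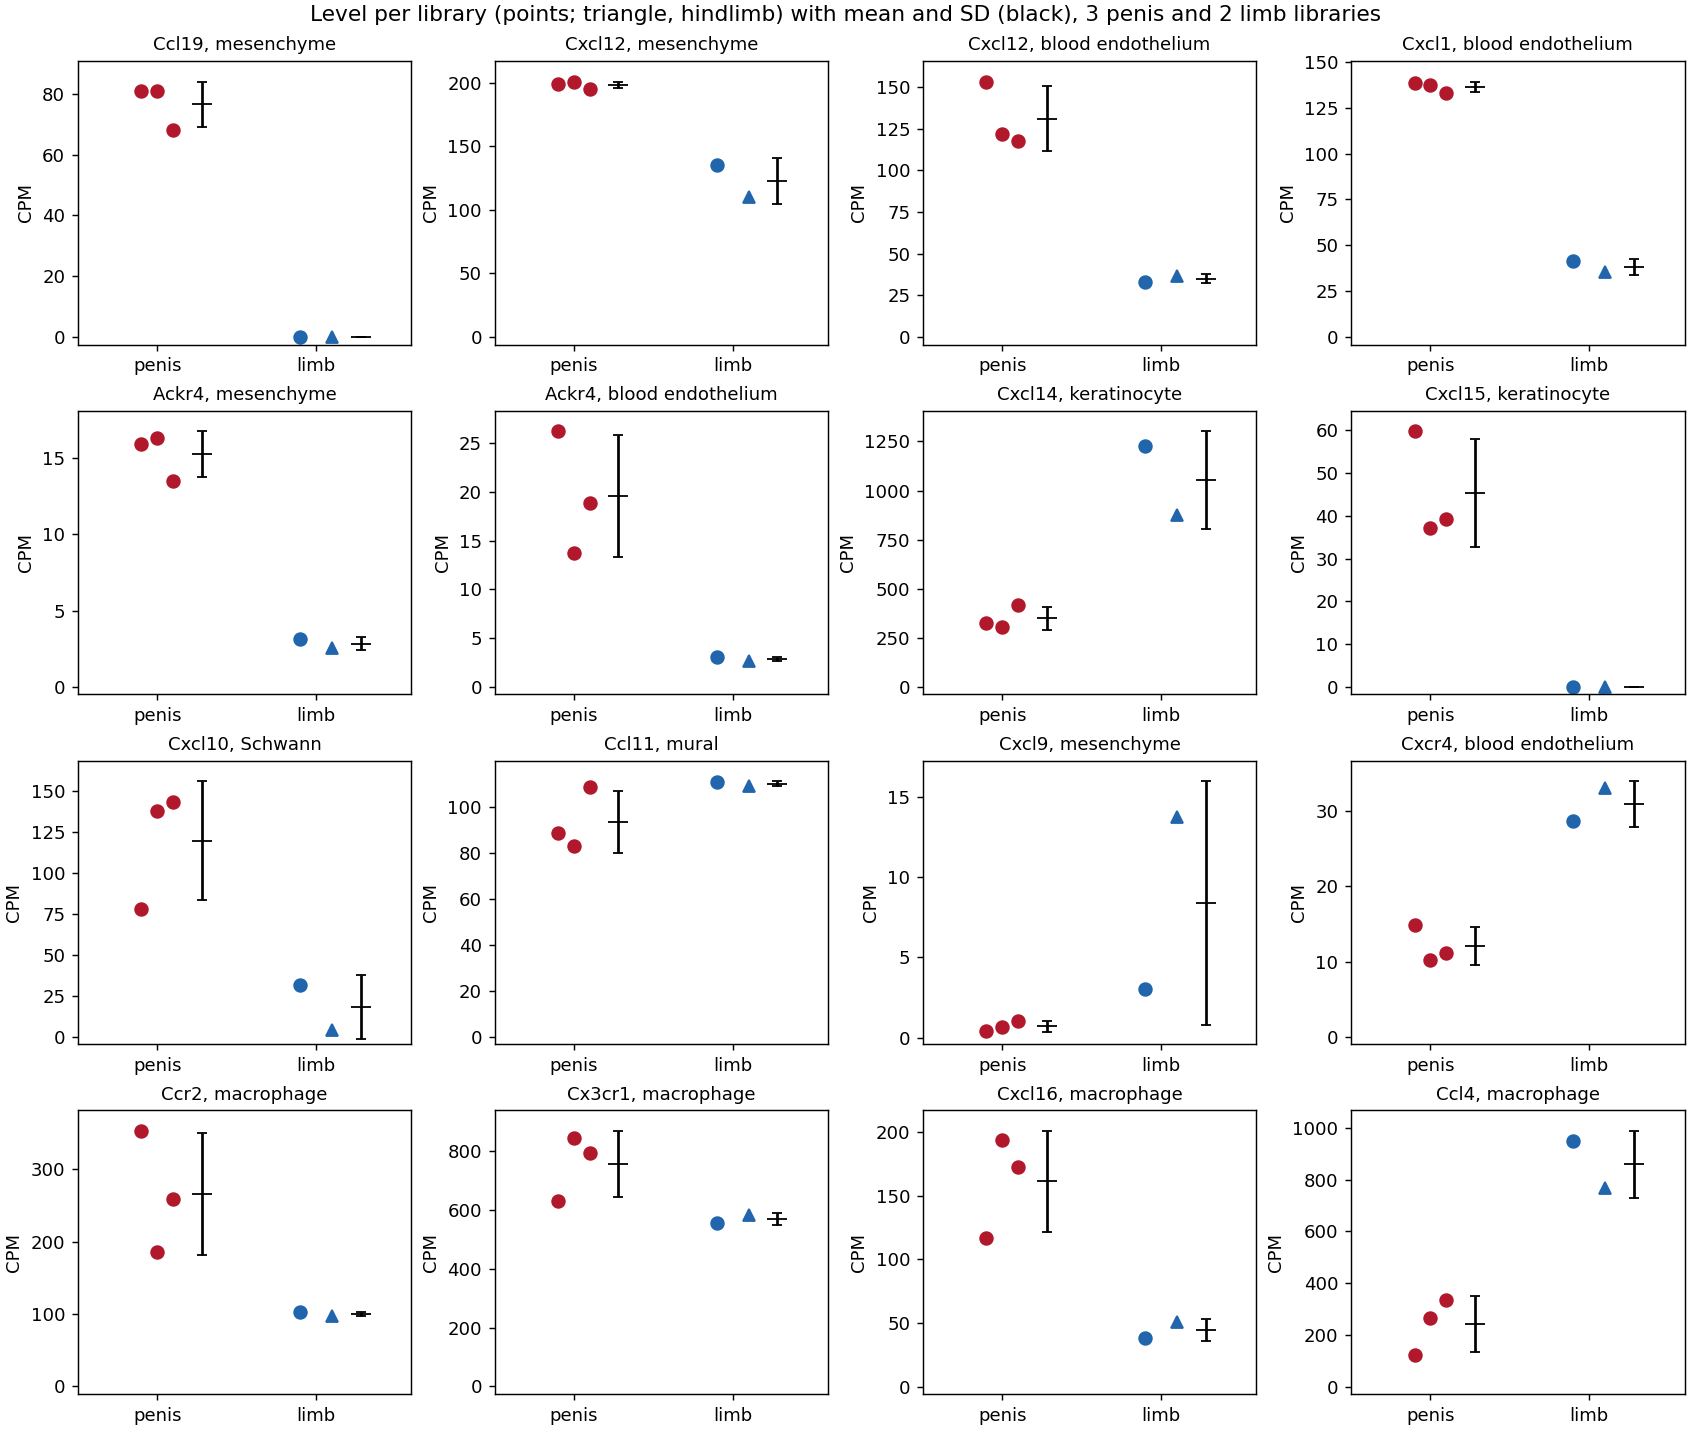
Level (CPM) of 16 member and cell type pairs in each library, with penis libraries at the left of each panel and forelimb and hindlimb (triangle) at the right, and bars for mean and SD. Ccl19 in mesenchyme and Cxcl15 in keratinocytes lie near or at 0 in both limb libraries, and Cxcl12 and Cxcl1 in blood endothelium separate without overlap.

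**Figure D3:**
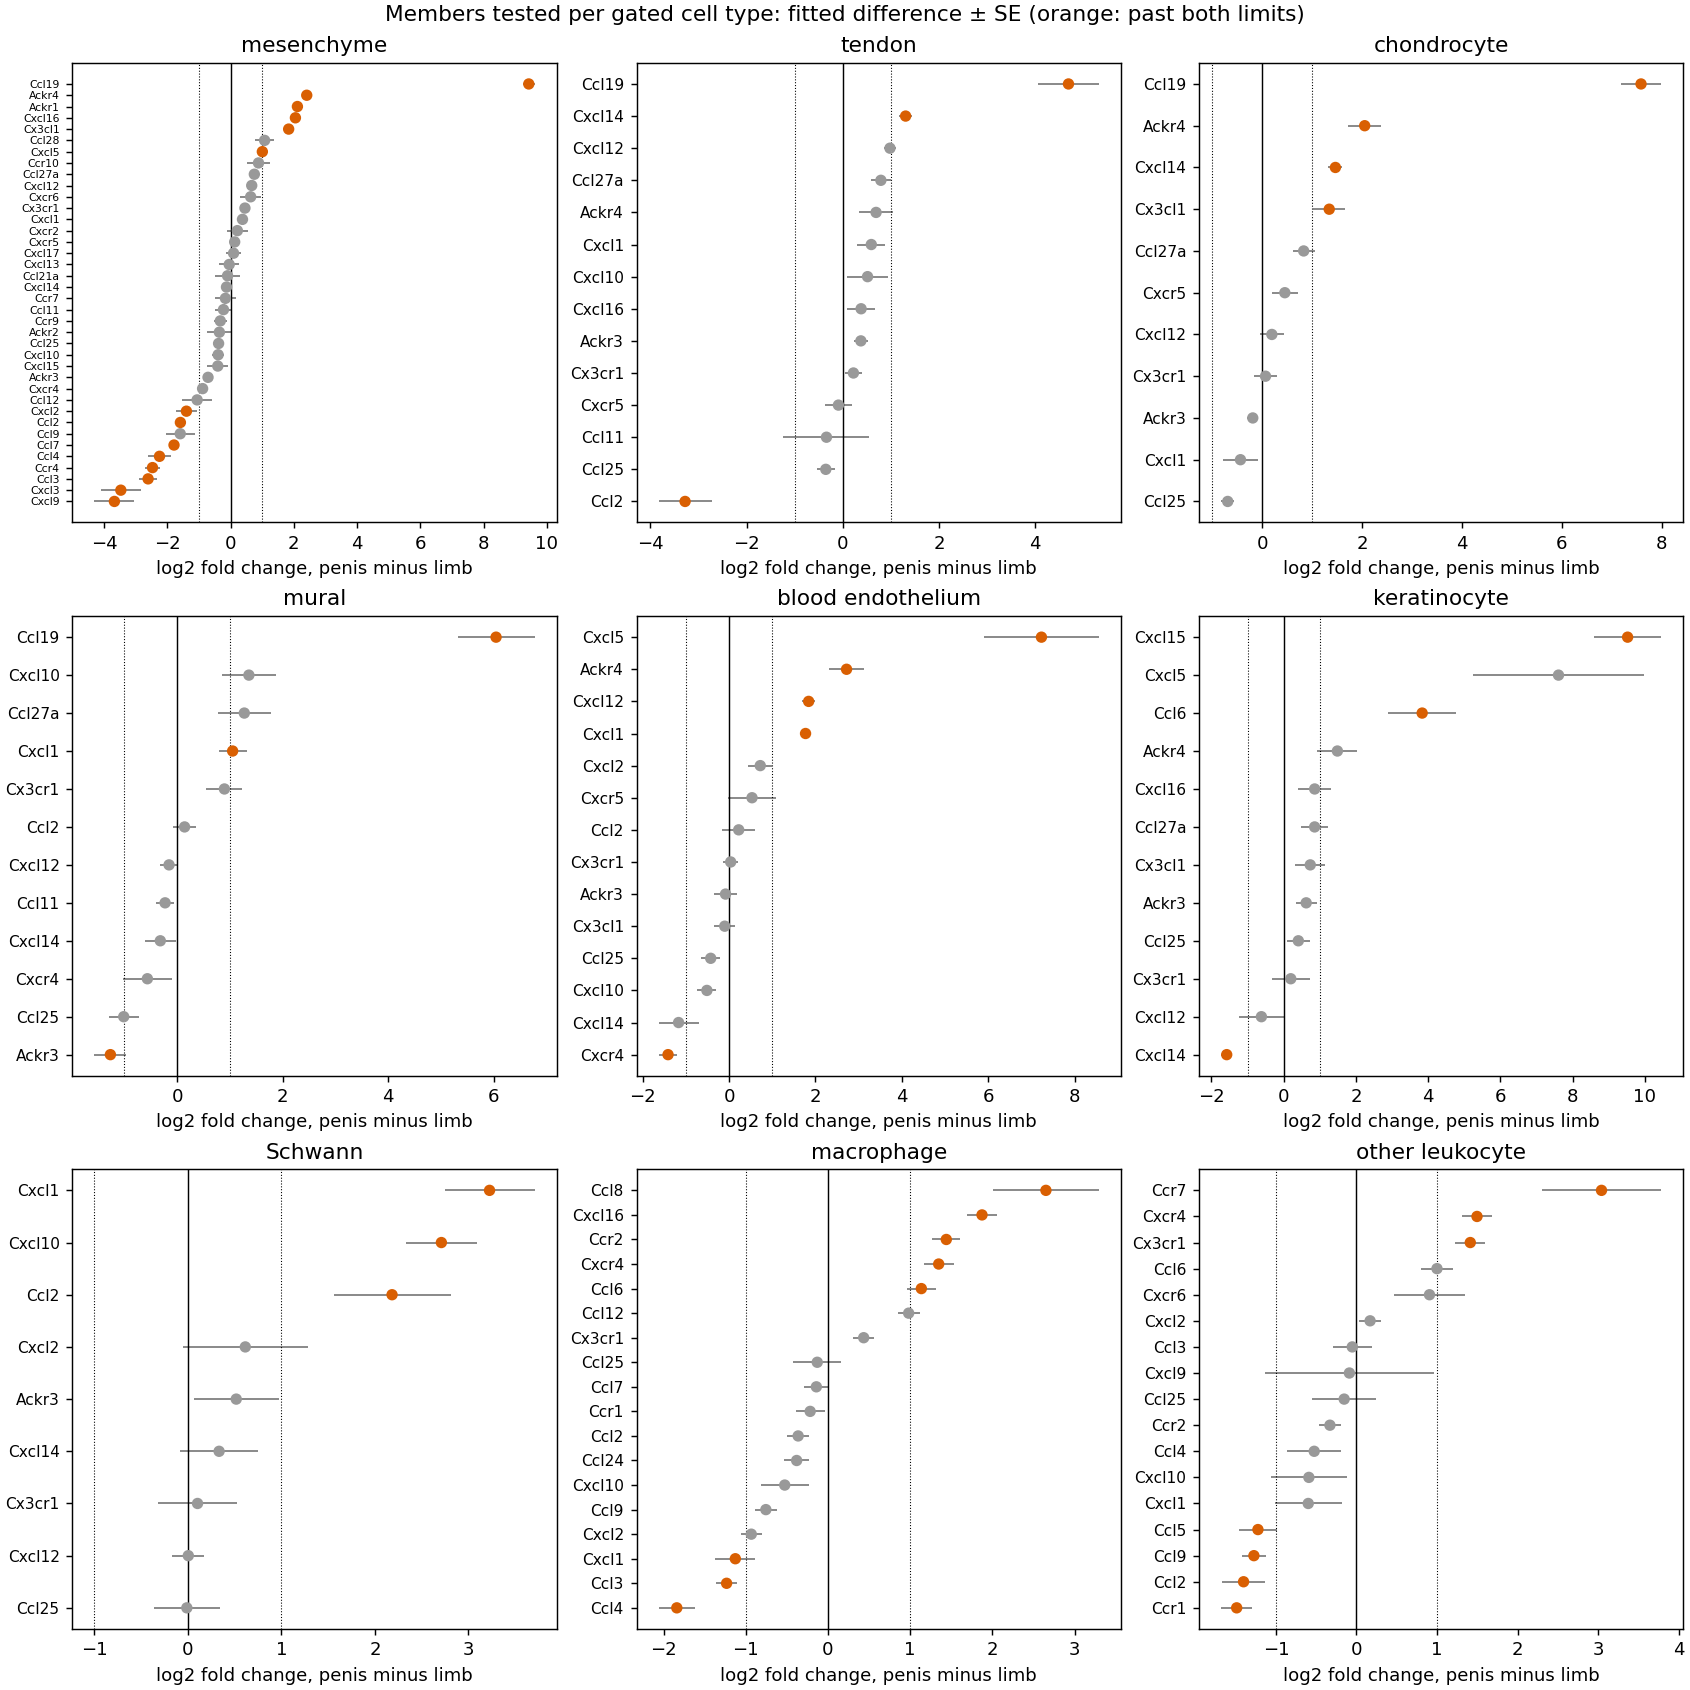
Log2 difference, penis minus limb, with its standard error for tested members of each of 9 cell types, where orange points passed both limits and dotted lines mark a difference of 1. Ccl19 has a wide positive difference in mesenchyme, mural cells, chondrocytes and tendon, and Cxcl1 lies on opposite sides in macrophages and in blood endothelium, while the fitted values of Cxcl5 and Cxcl15 with no limb UMI are not bounds.

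Ccl19 showed the greatest difference of any member tested between tissues in mesenchyme. Ccl19 and Ccl21 are the ligands of Ccr7 and attract naive T cells and mature dendritic cells, and fibroblastic stroma of lymph nodes is a known source of Ccl19. The mesenchyme level was 80.9 CPM in penis libraries 1 and 2 and 68.1 in library 3, and 0.10 and 0.11 in the forelimb and hindlimb. The UMIs behind these values were 9883 in the penis and 17 in the limb. The groups did not overlap, and the difference was 9.43 ± 0.18 (adjusted p = 6.35e-09, edgeR).

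A Ccl19 UMI was found in 31.0%, 29.2% and 27.1% of penis mesenchyme cells and in 0.0669% and 0.0798% of forelimb and hindlimb cells. Thinned to 2000 UMIs a cell the shares were 12.0%, 11.7%, 10.4%, 0.0240% and 0.0164%. No single penis cell held more than 28 UMIs. In macrophages 0, 2 and 1 penis cells of 81, 80 and 62 had one (thinned 0% to 0.778%). Median UMIs were 9125 to 10360 in penis mesenchyme and 8872 to 10897 in penis macrophages.

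The Ccl19 difference was seen in other stroma as well. Chondrocytes held 18.7, 20.9 and 17.3 CPM against 0.10 and 0.07 (7.59 ± 0.40, adjusted p = 5.87e-08, edgeR). Tendon cells held 8.71, 9.0 and 3.45 CPM against 0.33 and 0.17 (4.69 ± 0.63, adjusted p = 3.88e-05, edgeR). Mural cells held 53.5, 55.9 and 25.9 CPM against 1.14 and 0, a ratio of 81.1 with a counting interval of 14.3 to 3227 (adjusted p = 3.11e-05, edgeR). No library of 1 tissue reached the other in any of these types. The chondrocyte and tendon gates of the penis rest on few markers, since 355 of 549 penis and 659 of 3549 limb chondrocytes had just the 4 markers needed, as 383 of 617 and 637 of 1274 tendon cells had just the 3 needed. Chondrocyte markers summed to 2631 CPM in the penis gate, 9072 in penis osteoblasts and 7666 in the limb gate. With the stricter gate, which left 80, 69 and 51 penis chondrocytes, the Ccl19 difference in chondrocytes was 7.20 and was still called. Mural markers summed to 4935 CPM in the penis mural gate and 1648 in the limb one. The part of gate makeup in the chondrocyte, tendon and mural calls was not tested.

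Within penis mesenchyme, cells with a Ccl19 UMI (1355 of 4377, 1319 of 4510 and 1005 of 3706) were set beside those without, as a description. Cells with it had 0.53 to 0.55 times the Cxcl12 level, 0.34 to 0.40 times the Ackr4 level and 0.55 to 0.64 times the Ackr3 level of the others over the 3 libraries. They had 1.55 to 1.64 times the Cx3cr1 level and 1.56 to 1.74 times the Ccl27a level. Cxcl14 (0.87 to 0.93 times) and Cxcl16 (1.00 to 1.06 times) were close in both. Cells with the UMI were deeper, with medians of 9954 to 11330 UMIs against 8712 to 9918.

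Cxcl12 differed most in the endothelium. Blood endothelium held 153, 122 and 117 CPM in the penis against 33.0 and 36.8 in forelimb and hindlimb, with no overlap (1.84 ± 0.15, adjusted p = 1.5e-10, edgeR). In mesenchyme the penis libraries were again all higher, but the difference of 0.67 (adjusted p = 0.00018, edgeR) was under the limit of 1. In tendon cells it was 0.98 (112, 106 and 120 against 67.1 and 50.2 CPM). In mural cells and in Schwann cells the tissues overlapped. Its receptor Cxcr4 moved the other way in the endothelium, with 14.9, 10.2 and 11.2 CPM in the penis against 28.8 and 33.1 in the limb (-1.41 ± 0.20, adjusted p = 3.83e-06, edgeR).

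Cxcl14 differed in opposite directions by type. Keratinocytes of the penis held 350 ± 58.9 CPM against 1053 ± 249 in the limb (-1.58 ± 0.16, adjusted p = 8.39e-07, edgeR). Chondrocytes held 93.7, 84.7 and 122 CPM against 37.7 and 34.2 (1.46 ± 0.14, adjusted p = 7.02e-06, edgeR). Tendon cells held 198, 184 and 178 CPM against 92.2 and 63.1 (1.31 ± 0.14, adjusted p = 3.5e-06, edgeR). None of these 3 types had overlapping groups, and in mesenchyme the levels of 141 to 150 CPM in the penis and 155 CPM in both limb libraries differed by -0.13.

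Penis keratinocytes also held neutrophil and myeloid attractants. Cxcl15, known from lung epithelium, stood at 59.8, 37.0 and 39.2 CPM and was at 0 in both limb libraries, at least 29.3-fold higher (floor of 3 UMIs over the limb group, adjusted p = 8.62e-07, edgeR). It came from 14 of 281, 12 of 313 and 9 of 211 cells, or 4.98%, 3.83% and 4.27% (thinned 4.22%, 3.15% and 3.11%). None of 135 forelimb or 166 hindlimb keratinocytes had a UMI, and the exact 95% upper limits were 2.70% and 2.20%, so a limb share below these limits is not excluded by this number of cells. In macrophages 1 of 223 penis cells had a Cxcl15 UMI. Median UMIs of keratinocytes were 7503 to 10018 in the penis and 4044 to 4535 in the limb.

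Ccl6 in keratinocytes was at 8.15 ± 2.70 CPM in penis libraries and 0.482 ± 0.68 in limb libraries, a ratio of 15.5 with a counting interval of 2.69 to 623 (adjusted p = 0.00537, edgeR). It came from 6, 5 and 4 penis cells and 1 limb UMI, and the call ended when the forelimb, hindlimb or penis 3 library was left out. Cxcl5, an epithelial neutrophil attractant, was at 2.35, 8.08 and 29.0 CPM in penis keratinocytes and 0 in the limb, and it was not called.

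Cxcl1 was higher in penis vessels and glia. Blood endothelium held 139, 137 and 133 CPM against 41.4 and 35.2 (1.77 ± 0.12, adjusted p = 1.25e-11, edgeR). Schwann cells held 26.3, 25.7 and 29.7 CPM against 4.17 and 1.49 (3.23 ± 0.48, adjusted p = 1.5e-05, edgeR). Neither type overlapped. Mural cells (191, 90.5 and 185 against 78.8 and 72.0 CPM) also passed (1.05 ± 0.27, adjusted p = 0.00855, edgeR), but the call ended under 8 of 11 settings (the common cell filter, no low count filter, the stricter gate, the deepest cells left out, and without the forelimb, the hindlimb, penis 1 or penis 3), with a difference of 0.64 to 1.32 over them all. Genes that respond to dissociation (Fos, Jun, Egr1 and others) summed to 4118 to 4251 CPM in penis blood endothelium against 2487 to 2740 in the limb, with 3 of 11 called higher, and to 6030 to 6948 against 4861 to 5609 CPM in mural cells, with 2 of 11 called higher. In Schwann cells they were at 5590 to 5768 against 1866 to 1894 CPM, with 10 of 11 called higher (median 1.41) where 8.69% of all genes were. The gates' own markers also differed. Schwann markers summed to 16890 CPM in the penis Schwann gate and 3170 in the limb one, and mural markers to 4935 and 1648 CPM in the mural gates. The part of the dissociation genes and of gate makeup in the Cxcl1 values was not tested.

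Macrophages went the other way for Cxcl1, with 36.7, 28.6 and 83.0 CPM in the penis against 119 and 87.2 in the limb (-1.13 ± 0.24, adjusted p = 0.00163, edgeR), a call that ended under DESeq2, the common cell filter and no low count filter, and without the forelimb, penis 1 or penis 2. Cxcl5 in blood endothelium was at 5.19, 4.57 and 9.90 CPM in the penis and 0 in both limb libraries, at least 7.41-fold higher (adjusted p = 0.000103, edgeR).

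Schwann cells of the penis also held more Cxcl10, at 78.2, 138 and 144 CPM against 32.0 and 4.48 (2.71 ± 0.38, adjusted p = 7.53e-06, edgeR). They held more Ccl2 too, at 8.55, 14.3 and 16.9 CPM against 1.39 and 4.48 (2.18 ± 0.63, adjusted p = 0.00885, edgeR). Neither overlapped. The Cxcl10 call ended under DESeq2 and the Ccl2 call under DESeq2 and without either limb library. The dissociation genes and the Schwann marker sums given above moved with these calls too. Of the interferon list 2 of 3 tested were higher (Isg15 by 4.41 among them), and of the NF-kB list 2 of 5 (Nfkbia by 1.33 and Relb by 1.95). Their part in the chemokine values was not tested.

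Of 14 inflammatory ligands tested in mesenchyme, 7 were called lower in the penis and 1, Cxcl5, higher, beside the 12.6% and 12.5% of all genes. Cxcl1, the member of this group at the highest level, was at 28.9, 25.9 and 24.7 CPM against 15.6 and 24.7 and was not called (0.38 ± 0.16, adjusted p = 0.0624, edgeR). Ccl2 was at 2.97, 2.04 and 3.26 CPM against 8.28 and 7.88 (-1.58 ± 0.15, adjusted p = 2.25e-05), Ccl7 at 0.897 to 0.957 against 2.99 to 3.36 (-1.79 ± 0.15), and Cxcl2 at 1.26, 3.13 and 1.12 against 4.72 and 5.00 (-1.39 ± 0.34, adjusted p = 0.00532, all edgeR). Ccl3 (-2.61 ± 0.29) and Ccl4 (-2.25 ± 0.38) were under 1.4 CPM in every library. Cxcl9, an interferon-induced ligand of Cxcr3, was at 0.385, 0.631 and 1.06 against 3.03 and 13.7 CPM, and its groups did not overlap although the limb libraries lay far apart (-3.67 ± 0.64, adjusted p = 0.000779, edgeR). Cxcl3 was called lower, as was the receptor Ccr4. The Cxcl2 call ended under DESeq2 and without penis 1 or penis 3.

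Macrophage markers moved with these low values. The summed macrophage markers in mesenchyme were at 15.6 to 17.3 CPM in penis libraries against 20.8 to 22.7 in limb libraries. The complement genes C1qa, C1qb and C1qc stood in mesenchyme at 0.0217% to 0.0556% of their macrophage level in the penis and at 0.0666% to 0.101% in the limb. Csf1r, another macrophage marker, stood higher, at 0.628% to 0.699% and 0.965% to 1.10%. All of these are markers of the macrophage gate, and cells that passed several gates were left out, which can lower their ratios. Their ranges are therefore no neutral scale for free macrophage RNA. Ccl3 stood at 0.0542% to 0.0585% and 0.135% to 0.151% of its macrophage level, and Ccl4 at 0.0854% to 0.123% and 0.114% to 0.141%, within or above the range of the complement genes. Ccl2 (0.239% to 0.349% and 0.599% to 0.814%) and Ccl7 (0.215% to 0.324% and 0.731% to 0.839%) stood above the complement genes and below Csf1r. Cxcl2 stood at 0.108%, 0.316% and 0.0764% in the penis and 0.185% and 0.238% in the limb, where the tissues overlapped. The part of free macrophage RNA in the tissue difference was not tested.

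The 6 members called higher in penis mesenchyme were Ccl19, Cxcl5, both tethered ligands and 2 of the 4 atypical receptors. Cxcl16 was at 10.9, 9.09 and 10.8 CPM against 2.76 and 2.11 (2.05 ± 0.14, adjusted p = 2.57e-06), and Cx3cl1 at 3.16, 2.70 and 3.35 against 0.880 and 0.802 (1.84 ± 0.16, adjusted p = 1.03e-05, both edgeR). Ackr4 was at 15.9, 16.3 and 13.5 CPM against 3.13 and 2.54 (2.41 ± 0.13, adjusted p = 8.49e-07), and Ackr1 at 2.16 to 2.35 against 0.493 to 0.518 (2.12 ± 0.17, adjusted p = 7.56e-06, both edgeR). None of these overlapped. Cxcl5 passed narrowly (1.01 ± 0.15), and the call ended under 6 settings, among them without the forelimb or without penis 2.

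The Ackr4 difference was repeated in blood endothelium (26.2, 13.7 and 18.8 against 3.00 and 2.67 CPM, 2.72 ± 0.40, adjusted p = 5.7e-06) and in chondrocytes (5.28, 6.60 and 8.13 against 1.67 and 1.49 CPM, 2.05 ± 0.33, adjusted p = 0.000378, both edgeR), with no overlap in either. Cx3cl1 was called in chondrocytes too (1.34 ± 0.33), a call that ended without any 1 of the 5 libraries. With the stricter gate neither Ackr4 nor Cx3cl1 was called in chondrocytes, and the part of gate makeup in both calls was not tested. Ackr3 differed by -0.71 in mesenchyme, under the limit, and by -1.26 ± 0.30 in mural cells (12.9, 22.1 and 12.3 against 37.7 and 40.7 CPM, adjusted p = 0.00647, edgeR). The mural Ackr3 call ended under DESeq2, the common cell filter and no low count filter, and without the forelimb, the hindlimb, penis 1 or penis 3, and its sign turned (0.87) when the deepest 10% of cells were left out. With the stricter gate just 1 member was called in mural cells, so Ackr3 and Ccl19 were not both called there. Tendon cells held less Ccl2 in the penis (0.363, 1.29 and 0.492 against 9.37 and 5.23 CPM, -3.28 ± 0.55, adjusted p = 0.000271, edgeR). The penis values rest on 1, 3 and 1 UMIs. They were 0.0395% to 0.15% of the macrophage level in the penis and 0.54% to 0.677% in the limb. C1qa, C1qb and C1qc in tendon cells stood at 0% to 0.043% and 0.0676% to 0.151% of theirs, and Csf1r at 0.132% to 0.717% and 0.622% to 1.13%. The part of free macrophage RNA was not tested.

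Macrophages of the penis had lower levels of Ccl3 and Ccl4. Ccl4 was at 123, 265 and 335 CPM in penis libraries 1, 2 and 3 and at 951 and 769 in forelimb and hindlimb (-1.84 ± 0.22, adjusted p = 5.37e-06, edgeR). Ccl3 was at 219, 265 and 317 CPM against 669 and 596 (-1.23 ± 0.13, adjusted p = 1.28e-06, edgeR). Every penis library lay below both limb libraries for both genes, as it did for Cxcl2 (1167, 990 and 1461 against 2551 and 2102 CPM), whose difference of -0.93 was under the limit. A Cxcl2 UMI was found in 40.7%, 37.5% and 45.2% of penis macrophages and in 76.0% and 71.8% of limb macrophages, although the penis cells were deeper (median 8872 to 10897 UMIs against 6242 to 7174). These shares were not thinned. Mesenchyme, for comparison, held Cxcl2 at 0.0764% to 0.316% of its macrophage level in the penis and 0.185% to 0.238% in the limb.

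The penis macrophages had higher levels of Cxcl16 (117, 194 and 173 against 38.2 and 50.7 CPM, 1.87 ± 0.18, adjusted p = 3.1e-07, edgeR), with no overlap. The monocyte receptor Ccr2 was at 353, 186 and 259 CPM against 102 and 97.7 (1.44 ± 0.17, adjusted p = 4.24e-06, edgeR). Cxcr4 was at 73.4, 67.2 and 54.2 CPM against 27.7 and 24.9 (1.35 ± 0.18, adjusted p = 1.86e-05, edgeR). Penis libraries were all above the limb libraries for both receptors. Ccl6 (161, 87.2 and 129 against 63.3 and 53.0 CPM) was called at 1.14 ± 0.18 (adjusted p = 7.8e-05, edgeR), but it fell under the limit without the hindlimb (0.98) or penis 1 (0.87), and the Ccl8 call (2.65 ± 0.64) ended without the forelimb, the hindlimb, penis 2 or penis 3. Ccl12 (0.98), Cx3cr1 (0.43) and Ccl2 (-0.36) were not called, and Ccl7, Ccl24, Ccr1 and Cxcl10 overlapped between the tissues.

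Dendritic cell markers moved with the macrophage values. The 7 markers summed to 2775, 1219 and 1834 CPM in penis macrophages and 54.6 and 14.2 CPM in limb macrophages, with none at 0 in the penis and 1 at 0 in the limb. With the stricter gate, which left 65, 59 and 44 penis and 544 and 505 limb macrophages, the differences were 0.87 for Ccr2 (adjusted p = 0.0316), 0.31 for Ccl6 (adjusted p = 0.503) and 0.88 for Cxcr4 (adjusted p = 0.0598, all edgeR), so these 3 calls ended, while those of Ccl3, Ccl4 and Cxcl16 did not. The dissociation genes summed to 6480 to 7985 CPM in penis macrophages and 4444 to 4859 in limb macrophages, with 6 of 11 called higher. The part of either in the member differences was not tested.

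Macrophages with a Ccr2 UMI (31 of 81, 23 of 80 and 21 of 62 in the penis, 119 of 582 and 115 of 521 in the limb) were set beside those without one, again as a description. The shares were 38.3%, 28.8% and 33.9% in the penis and 20.4% and 22.1% in the limb, or 31.0%, 21.8%, 25.3%, 14.2% and 14.3% after thinning to 2000 UMIs. Cells with Ccr2 had 3.70 to 6.41 times the Ccl6 level of the others in the penis and 3.41 to 3.80 times in the limb. Ccl9 was 1.94 to 3.49 times and 1.67 to 1.82 times.

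Ccl2, Ccl7 and Ccl12 stood lower in cells with a Ccr2 UMI than in those without. Ccl2 in cells with Ccr2 was 0.284 to 0.328 times the level of the others in the penis and 0.215 to 0.391 times in the limb, Ccl7 0.224 to 0.355 and 0.0911 to 0.222 times, and Ccl12 0.0236 to 0.257 and 0.207 to 0.400 times. Ccl3, Cxcl16 and Cx3cr1 were also lower in cells with Ccr2 in each of the 5 libraries. The ratios of Ccl4 (0.317 to 1.27) and Cxcl2 (0.348 to 1.32) in the penis lay on both sides of 1, and in the limb they were 0.256 to 0.268 and 0.469 to 0.478.

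**Figure D4:**
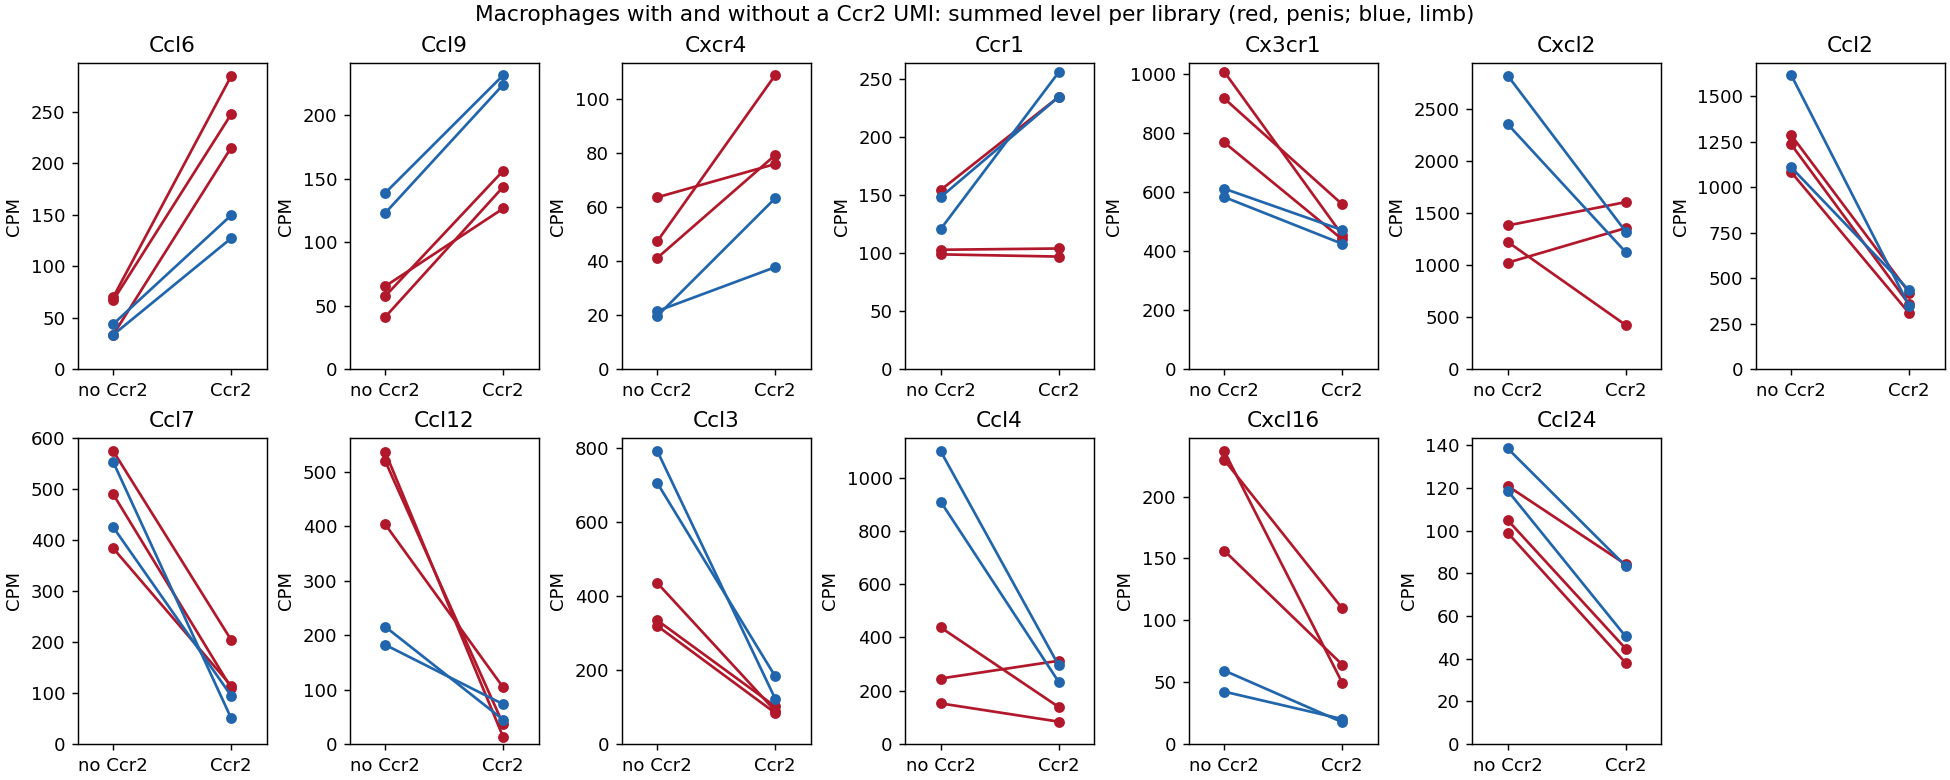
Level (CPM) of members in macrophages with and without a Ccr2 UMI, joined by a line per library, with penis libraries in red and limb libraries in blue. Lines for Ccl6 and Ccl9 run higher in cells with Ccr2, and those for Ccl2, Ccl7, Ccl12, Ccl3, Cxcl16 and Cx3cr1 run lower, in all 5 libraries.

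Other leukocytes of the penis had less Ccl9 (128, 131 and 142 against 300.2 and 340 CPM, -1.27 ± 0.15, adjusted p = 2.71e-05) and less Ccr1 (73.2, 45.8 and 53.8 against 167 and 159 CPM, -1.49 ± 0.20, adjusted p = 7.26e-05, both edgeR), without overlap. Ccl5 was at 32.8, 45.8 and 34.0 CPM against 79.0 and 95.4 (-1.22 ± 0.23, adjusted p = 0.00134) and Ccl2 at 21.5 to 25.3 against 54.9 to 66.8 (-1.40 ± 0.26, adjusted p = 0.00122, both edgeR). Both calls ended when single libraries were left out, Ccl5 without the hindlimb and Ccl2 without the forelimb. Cxcr4 (181, 202 and 244 against 75.3 and 70.6 CPM, 1.5 ± 0.18, adjusted p = 4.12e-05) and Cx3cr1 (221, 287 and 294 against 111 and 87.6 CPM, 1.41 ± 0.19, adjusted p = 8.11e-05, both edgeR) were higher without overlap. Ccr7, the receptor of Ccl19 and Ccl21, was at 22.7, 18.9 and 7.17 CPM against 2.43 and 1.31 (3.04 ± 0.74, adjusted p = 0.00722, edgeR), a call that ended without either limb library.

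The makeup of this gate differed between libraries. Its dendritic markers summed to 372, 906 and 140 CPM in penis libraries against 638 and 243 in limb libraries. Its mast cell markers summed to 50.5, 120 and 206 CPM against 314 and 451, and its macrophage markers to 852 to 902 CPM against 608 to 610. Neutrophil markers (837 to 1351 against 1282 to 1437 CPM) and T and NK cell markers (122 to 149 against 126 to 144 CPM) overlapped. The dissociation genes summed to 5254 to 6013 CPM against 3889 to 4057, with 4 of 11 called higher (Atf3, Dusp1, Ier2 and Jun, by 1.34 to 1.57) and Ier3 lower (-1.28). Their part in the differences was not tested, and under the stricter gate the calls of Ccl2, Ccl5, Ccl9 and Ccr7 ended.

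Several members were seen best in gates too small for a test in both tissues. Mast cells made up 554 forelimb and 534 hindlimb cells but 6, 12 and 11 penis cells. In the limb they held Ccr8 (97.6 and 76.3 CPM), its ligand Ccl1 (46.8 and 35.1 CPM) and the Ccr4 ligand Ccl17 (47.3 and 51.4 CPM), with a UMI in 47.3% and 47.2%, 13.4% and 12.6%, and 27.3% and 34.6% of cells. Thinned to 2000 UMIs the shares were 17.5% and 14.0% for Ccr8, 5.96% and 4.53% for Ccl1, and 8.07% and 8.87% for Ccl17. Among limb macrophages (582 and 521 cells) 1 had a Ccl17 UMI and none had a Ccr8 or Ccl1 UMI, at median depths of 6242 and 7174 UMIs against 7438 and 9097 in mast cells. Cx3cr1 was at 169 and 176 CPM. In the 29 penis cells Ccr8 and Ccl17 had no UMI, which allows a share of up to 11.9% of cells with one (exact 95% upper limit).

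The penis mast gate was not uniform, and it was split after its values were seen by any UMI of the mast cell proteases Mcpt4 or Cma1. Of the 29 cells, 16 had one and 13 had none (3 of 6, 4 of 12 and 6 of 11 by library). All 13 cells without either protease had Ccl3, Ccl4 and Ccl9 UMIs and 12 had Ccl6, and they held 97.8% of the Ccl4 UMIs of the gate. Mcpt8, a protease known from basophils, was found in 10 of them, which held 99.2% of its UMIs. The 16 cells with a protease held all Ccl2 UMIs of the gate (112 UMIs in 10 cells), with Ccl7 in 7 cells and Ccl4 in 1. Ccl1 was found in 5 of these 16 (7 UMIs, 94.0 CPM) and in 141 of the 1073 limb cells with a protease (40.9 CPM). For the 16 cells alone, no Ccr8 or Ccl17 UMI allows a share of up to 20.6% of cells with one (exact 95% upper limit). In the limb 1073 mast cells had a protease UMI and 15 had none, and Ccl4 was found in 32 of the former and 7 of the latter. Mcpt8 was found in 185 of the limb cells with a protease, which held 66.8% of its UMIs, and in 9 of the 15 without.

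Lymphocyte members could be described in the penis alone, where the T and NK cell gate held 24, 24 and 17 cells against 2 and 1 in the limb. Cxcr6 was at 475, 365 and 304 CPM, with a UMI in 70.8%, 75.0% and 64.7% of cells (thinned 49.4%, 42.3% and 37.6%), against 1 of 223 penis macrophages. Median UMIs were 6954 to 7652 in these cells. Ccr2 was at 267, 235 and 215 CPM in the same cells. Neutrophils (9 to 14 penis and 12 to 15 limb cells a library) held their receptor Cxcr2 at 361, 205 and 329 CPM in the penis and 86.7 and 147 in fore- and hindlimb. Dendritic cells (8 to 24 cells a library) held Ccr7 at 146, 28.5 and 117 CPM and 81.6 and 78.9 CPM, and the tissues overlapped.

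Whole libraries, with their mix of types, were compared last. Of 52 members tested, 11 were higher in the penis and 13 lower (13% and 11.5% of all genes), and the median member difference was 0.19 against 0.01 over all genes. In these sums fewer cells of a type and less RNA per cell cannot be told apart. Macrophage markers summed to 151 to 164 CPM in penis libraries against 290.3 to 310 in limb libraries, and the macrophage ligands Ccl24 (-1.66), Ccl3 (-1.41), Ccl7 (-1.33), Ccl2 (-1.32), Ccl4 (-1.32) and Cxcl2 (-1.32) were all lower. The mast cell members Ccr8 (-6.19), Ccl1 (-4.25) and Ccl17 (-2.61) were lower too, the last of these with a call that ended under DESeq2 and without penis 3. Ccl19 (9.05), Cxcl15 (3.00) and Cxcr6 (2.59) were the members with the greatest differences in the other direction.

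The tissue difference itself was compared between blood endothelium and mesenchyme, the types with the most cells of a vessel and of stroma. Of 33 members tested 7 differed (6 more positive in endothelium, 1 in mesenchyme), against 7.86% of all genes in either direction. Cxcl12 differed by 1.18 ± 0.16 (adjusted p = 7.71e-07, edgeR) and Cxcl1 by 1.41 ± 0.17 (adjusted p = 1.16e-07, edgeR), and both tissue differences were more positive in endothelium (1.84 and 1.77) than in mesenchyme (0.67 and 0.38). Cx3cl1 differed by -1.92 ± 0.36 (adjusted p = 0.000167, all edgeR), with a tissue difference of -0.10 in endothelium and 1.84 in mesenchyme. The Cxcl12 value passed under each of the 6 alternatives run for this comparison (no block and each library left out), while the Cxcl1 and Cx3cl1 values failed without the hindlimb.

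Other genes of the pathway were followed in fixed lists. Of 24 genes of chemokine receptor signalling, 17 were called higher in macrophages and 20 in other leukocytes than in the other gated cells, where 13.2% and 12.6% of all genes were. Rac2 of this list is also a marker of the leukocyte gate, so its level in other leukocytes was favoured by the gating. The list was chosen by hand, and Rac2, Rgs1 and Rgs18 were at 0 CPM in mural cells of every library. These counts thus do not come from a neutral set of genes. Between tissues the shares of all genes called higher and lower were 6.65% and 2.94% in macrophages, 6.06% and 3.91% in other leukocytes, 7.47% and 4.95% in blood endothelium, and 12.5% and 12.6% in mesenchyme. Of this list, 4 of 23 tested were higher and none lower in penis macrophages, namely the receptor kinases Grk3 (2.57) and Grk5 (1.80), the kinase Ptk2b (1.39) and the arrestin Arrb1 (1.02). In other leukocytes Grk3 (2.57), Grk5 (1.78) and Ptk2b (1.35) were higher and Rgs10 (-1.13) and Jak2 (-1.04) lower of 23. In blood endothelium 3 were higher and 3 lower of 17, and in mesenchyme 1 and 2 of 22.

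Of 10 chemokine family and binding genes outside the members, 5 were higher and 2 lower in the whole penis libraries (13% and 11.5% of all genes). In blood endothelium Pf4, a platelet chemokine, was at 915 ± 32.7 CPM in penis libraries against 11.2 ± 3.08 in limb libraries (6.27), Gpr182, an endothelial scavenger of chemokines, was higher by 2.03, and Mif was lower (-1.38). Macrophages held more Pf4 than endothelium in both tissues, at 3820 CPM in the penis and 2558 CPM in the limb, a difference of 0.60 that was not called. In keratinocytes Ppbp, also a platelet chemokine, was at 192 ± 85.0 CPM against 0.573 (8.39), and Dpp4, a protease that cuts chemokines, was lower (-3.53). Cd74, the invariant chain and a Mif receptor, was higher in macrophages by 4.23 (1473 against 79.4 CPM), in the gate whose dendritic cell markers summed to 1219 to 2775 against 14.2 to 54.6 CPM. The NF-kB list had 1 gene higher (Tnf by 3.65) and 3 lower of 11 in mesenchyme, 2 of 7 higher in mural cells (Nfkbia by 1.17 and Nfkbiz by 1.21, with 7.13% of all genes higher) and 1 of 9 higher in blood endothelium. In macrophages its 1 call of 11 was Ptgs2, lower (-1.90), and in other leukocytes Tnf was higher (1.22) and Ptgs2 lower (-3.04) of 11. The interferon list had 4 of 8 higher in mesenchyme and 3 of 6 higher in macrophages, and the dissociation list 2 of 11 in mesenchyme. In other leukocytes Isg15 (-1.04, adjusted p = 0.0168) and Oasl2 (-1.49, adjusted p = 0.0291, both edgeR) of the interferon list were not called.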

How the data were processed

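UMIs were counted in 3 libraries of penis, 1 of forelimb and 1 of hindlimb. From 3′ libraries the authors made, and deposited, unnormalized counts of UMIs for each gene in each barcode called as a cell, with Cell Ranger (version 7.0.0) against the mm10 build. The study's filters were applied: 500 to 6000 genes and at most 5% mitochondrial UMIs in the penis, and at least 100 genes, at most 9000 (forelimb) or 9500 (hindlimb) genes and at most 10% mitochondrial UMIs in the limb, with at least 0.8 log10 genes per log10 UMI in all. The methods state the limits on genes as reads per cell, and they were read here as genes. Of 10429, 11397 and 8411 penis, 28266 forelimb and 25937 hindlimb barcodes, 6788, 7085, 5708, 22057 and 20514 cells remained, holding 51529854 to 148752710 UMIs a library. No column of sample values was left unused.

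A cell entered a gate when it had UMIs for a set number of that type's markers (5 of 8 for mural cells, for example). Cells that passed several gates (159 to 954 a library) were left out as mixed, and no doublet caller was run. UMIs of the cells of a type were summed per library and fitted over all genes that passed edgeR's filter on low counts (edgeR 4.0.16, TMM scaling, quasi-likelihood test, Benjamini-Hochberg adjustment). The type comparisons and the endothelium against mesenchyme comparison had the library as a block, since both sums came from the same cells' library. Alternatives were DESeq2 (1.42.0), RLE scaling, no low count filter, a gate with 1 more marker, a common cell filter, the deepest 10% of cells left out, each library left out and no block. Intervals and upper limits are exact, at 95%, and cover counting error only. Shares of cells are also given after thinning each cell to 2000 UMIs (the mean over random draws, by formula), without shallower cells. With 3 against 2 libraries no exact permutation test can fall below 0.1, so shares were not tested. Gene positions are those of mm10.

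The members, gene lists and comparisons were chosen with earlier results of these data known. The text was to name every member called between tissues and every member of at least 10 CPM in a type with enough cells, kept to the 30 of highest level. The last of the 30 was Cxcr6 (23.4 CPM), and the first left out was Ackr4 (19.6 CPM). A member called between tissues and a gene of the lists below are counted but not reported here. Ackr1, Ackr2, Ackr4, Cx3cl1, Ccl8, Ccl27a, Cxcl3, Cxcl5, Cxcl9, Ccr4, Ccr7 and Cxcr2, the mast gate split and the promoters shown were singled out after values were seen. The lists were receptor signalling, family and binding genes outside the members, NF-kB targets, interferon response and dissociation response.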

Additional observations from a re-analysis of the deposited data

Results flagged for a closer look

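The penis minus limb difference differed between blood endothelium and mesenchyme for 7 members by edgeR's quasi-likelihood test of the difference itself. The value, endothelium minus mesenchyme, was 1.84 for Ccl2, 3.14 for Ccl7, 1.41 for Cxcl1, 1.18 for Cxcl12, 2.20 for Cxcl2, 9.58 for Cxcl5 and -1.92 for Cx3cl1 on the log2 scale. The Cxcl5 and Ccl7 values rest on 0 and 3 UMIs in limb endothelium. The Cxcl12 call held under each of the 6 alternatives run. The Ccl2 call ended without the forelimb, the Cxcl1 and Cx3cl1 calls without the hindlimb, and the Ccl7 call without the forelimb, the hindlimb or penis 2. The Cxcl2 call ended without the block on the library, and the Cxcl5 call without the block, the forelimb or the hindlimb.

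Ccl2 and Cxcl1, and also Cxcl14 and Cxcr4, were called in opposite directions in different types. Ccl2 was higher in penis Schwann cells (2.18) and lower in other leukocytes (-1.40), tendon cells (-3.28) and mesenchyme (-1.58). Cxcl1 was higher in blood endothelium (1.77), mural cells (1.05) and Schwann cells (3.23) and lower in macrophages (-1.13). Cxcl14 was higher in chondrocytes (1.46) and tendon cells (1.31) and lower in keratinocytes (-1.58). Cxcr4 was higher in macrophages (1.35) and other leukocytes (1.50) and lower in blood endothelium (-1.41). The Ccl2 call in Schwann cells ended under DESeq2 and without either limb library, and that in other leukocytes under DESeq2, the stricter gate and without the forelimb. The Cxcl1 call in macrophages ended under 6 of 11 settings and that in mural cells under 8 of 11, and the Cxcr4 call in macrophages ended with the stricter gate. So the opposite directions of Ccl2 and Cxcl1 each rest on a call that ended, while the calls of Cxcl14, and of Cxcr4 in other leukocytes and blood endothelium, held under every alternative tried. The differences between these types were not tested. Groups of 3 and 2 libraries were too small for a check on single outlying samples.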

How the results depend on the processing

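Of 51 calls between tissues, 33 held under every alternative tried and 18 ended under at least 1 (14 of them without a single library, 11 under DESeq2 and 10 under the stricter gate), and of 183 calls between types 131 held and 52 ended. Of the 7 calls between blood endothelium and mesenchyme 1 held and 6 ended. Counts of members called that moved by more than 1.5 times between tissues were 1 in Schwann cells under DESeq2 (3 in the main fit), 7 without the low count filter and 2 with the stricter gate in chondrocytes (4), 5 without the low count filter in macrophages (8), 1 each with the common cell filter, no low count filter and the stricter gate in mural cells (3), and 5 under DESeq2 in other leukocytes (8). Between types they were 19 in Schwann cells under DESeq2 (12) and, without the block on the library that paired both sums, 9 in mural cells (14). With each library left out in turn, the counts were 1 to 3 in mural cells and 3 to 5 in tendon cells between tissues, 8 to 13 in mural cells between types and 4 to 8 for the endothelium against mesenchyme comparison (7, and 5 without the block). The mural Ackr3 difference reversed to 0.87 with the deepest cells left out. The cause of these changes was not tested.

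Penis macrophages numbered 62 to 81 a library, so members there rest on few cells. Shares of cells move with the thinning depth, as for Ccl19 in penis mesenchyme (5.75% to 6.74% at 1000 UMIs and 17.5% to 19.7% at 4000), while limb shares stayed under 0.04%.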

Other observations

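Some values belong to gates of 1 tissue or of few cells. Limb muscle cells (1153 in the forelimb and 968 in the hindlimb) held Cxcr4 at 7.33 and 4.86 CPM. Ackr2, an atypical receptor of inflammatory CC chemokines known from lymph vessels, was at 0, 5.64 and 9.62 CPM in penis lymphatic endothelium and at 19.4 and 2.15 CPM in forelimb and hindlimb. Neutrophils held Ccr1 at 220, 102 and 263 CPM in the penis and 77.1 and 32.6 CPM in the limb, and dendritic cells held Ccr2 at 331, 398 and 259 CPM and 177 and 366 CPM.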
